A study of Mus musculus with 4 samples.

Results

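Astrocyte identity was followed through 10 genes that are widely used to mark this cell type: Gfap, Aqp4, Aldh1l1, Slc1a3, Slc1a2, Gja1, Gjb6, S100b, Aldoc and Fgfr3. They were taken by gene symbol from 4 tables of transcript levels. Each of the 10 symbols was found under 1 gene identifier, giving 66 transcripts out of 128603 and 10 genes out of 45215. The tables describe total RNA from brains of wild-type mice of the laboratory strain C57BL/6 (B6), of the inbred strain CAST/EiJ (CAST) and of F1 hybrids of both crosses, F1i (C57BL/6 x CAST/EiJ) and, with the strains in the other order, F1r (CAST/EiJ x C57BL/6). Every group was a single library made from the pooled left hemispheres of 5 mice, although the series design names whole brain. Age, sex and the dam of each cross are not given in the labels. With 1 library per group there is no replicate spread, so the differences below carry no test, error or p-value, and the difference between the F1 libraries also holds all variation between pools.

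Astrocytes are the glial cells that wrap synapses and blood vessels. They clear glutamate and potassium after neuronal firing, move water at their endfeet, share ions and metabolites through gap junctions, and supply neurons with metabolic substrates. The 10 genes cover these tasks: an intermediate filament (Gfap), a water channel (Aqp4), 2 glutamate transporters (Slc1a2, Slc1a3), 2 connexins (Gja1, Gjb6), 2 metabolic enzymes (Aldoc, Aldh1l1), a calcium-binding protein (S100b) and a growth factor receptor (Fgfr3). Several are not limited to astrocytes. Aldoc is also made by Purkinje cells, S100b by some oligodendrocytes, Slc1a3 by Bergmann and radial glia, and Gfap and Aqp4 by ependymal or other glial cells.

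Promoter sequences from RefSeq (GRCm38.p6) were used for 9 of the 10 genes, with 11 start sites in all, since Aldoc and Fgfr3 had 2 each. Aqp4 had no window among those kept, which does not show that RefSeq lacks one. Each window holds 250 bases before and 50 after the start. These are not always the starts of the transcripts with most of the FPKM. The Gfap window leaves out the start of Gfap-201 at 102897131, a transcript with 88.6% to 90.5% of the gene's FPKM. The Slc1a2 window, counted but not printed, leaves out the start of Slc1a2-202 at 102658659. The letters TTCNNNGAA, the core that STAT transcription factors bind, were searched because STAT3 is a known regulator of Gfap. They read the same on both strands. This core was present in 3 of 11 member windows and in 8.30% of all 32851 windows kept from the RefSeq table. The 4 windows printed are those 3 and the upstream Aldoc window, which lacks the core, with matches in capitals, all 5′ to 3′ on the strand of the gene. The Gfap window is chr11:102897151-102897450 (minus strand), the Slc1a3 window chr15:8710758-8711057 (minus), and the Aldoc windows chr11:78322823-78323122 and chr11:78323948-78324247 (plus).
Gfap: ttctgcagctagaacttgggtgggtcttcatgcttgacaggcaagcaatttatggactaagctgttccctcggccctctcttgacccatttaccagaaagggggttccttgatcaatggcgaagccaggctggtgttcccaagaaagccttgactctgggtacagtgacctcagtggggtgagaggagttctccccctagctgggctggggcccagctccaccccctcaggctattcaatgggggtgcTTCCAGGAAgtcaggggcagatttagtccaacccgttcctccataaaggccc
Slc1a3: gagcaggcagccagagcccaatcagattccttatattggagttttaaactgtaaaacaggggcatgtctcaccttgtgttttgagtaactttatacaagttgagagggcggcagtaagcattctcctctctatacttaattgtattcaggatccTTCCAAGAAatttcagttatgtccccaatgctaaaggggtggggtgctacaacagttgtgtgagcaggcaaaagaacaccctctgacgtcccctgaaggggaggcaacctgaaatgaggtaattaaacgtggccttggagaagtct
Aldoc upstream start: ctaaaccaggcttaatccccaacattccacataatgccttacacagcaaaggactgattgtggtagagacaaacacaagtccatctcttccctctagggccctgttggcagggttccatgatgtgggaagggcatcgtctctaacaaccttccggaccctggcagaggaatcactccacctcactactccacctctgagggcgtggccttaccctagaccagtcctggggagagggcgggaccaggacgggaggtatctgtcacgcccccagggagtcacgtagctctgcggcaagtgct
Aldoc downstream start: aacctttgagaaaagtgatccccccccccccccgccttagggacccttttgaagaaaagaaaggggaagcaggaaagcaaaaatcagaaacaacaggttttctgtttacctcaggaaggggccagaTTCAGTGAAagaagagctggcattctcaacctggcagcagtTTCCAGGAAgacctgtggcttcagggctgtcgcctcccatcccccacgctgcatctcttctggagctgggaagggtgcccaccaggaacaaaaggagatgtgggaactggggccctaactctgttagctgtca
The Gfap and downstream Aldoc windows hold the same 9 letters, TTCCAGGAA, and the latter also holds TTCAGTGAA. The Slc1a3 window holds TTCCAAGAA and is the only one of the 11 with TATAAA on either strand, which 13.6% of all windows hold. CCAAT on either strand was in 4 of 11 windows, those of Aldh1l1, S100b, Slc1a3 and Fgfr3, against 37.4% of all. The palindromic nuclear factor I site, on either strand, was in 0 of 11 and in 0.0365% of all. The 2 Fgfr3 windows were rich in CpG, with 26 and 30 CG pairs against a median of 7. These matches describe letters, not bound sites, and their part in any level below was not tested.

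All 10 genes were well expressed. Levels are in FPKM, the fragments of a transcript divided by its length and by the size of the library. Their mean over the 4 libraries ran from 14.4 FPKM for Aldh1l1, above 65.4% of the 13768 genes with a mean of at least 1 FPKM, to 352 for Aldoc, above 99.3%. Aldoc, Slc1a2, S100b and Slc1a3 held the 1st to 4th place in that order in every library, and Aldh1l1 was the lowest in all 4. Between neighbours in the middle the order changed. Gjb6 was below Gfap and Gja1 in the inbred libraries and above both in the hybrids, and Aqp4 exceeded Fgfr3 in B6 but not in the other 3 libraries. The widest span across libraries was 1.7-fold, in Aldh1l1, and the narrowest 1.12-fold, in Slc1a3, both as the ratio of highest to lowest FPKM. The summed level of the 10 genes was 1134 (B6), 1078 (CAST), 1093 (F1i) and 1041 FPKM (F1r).

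**Figure D1:**
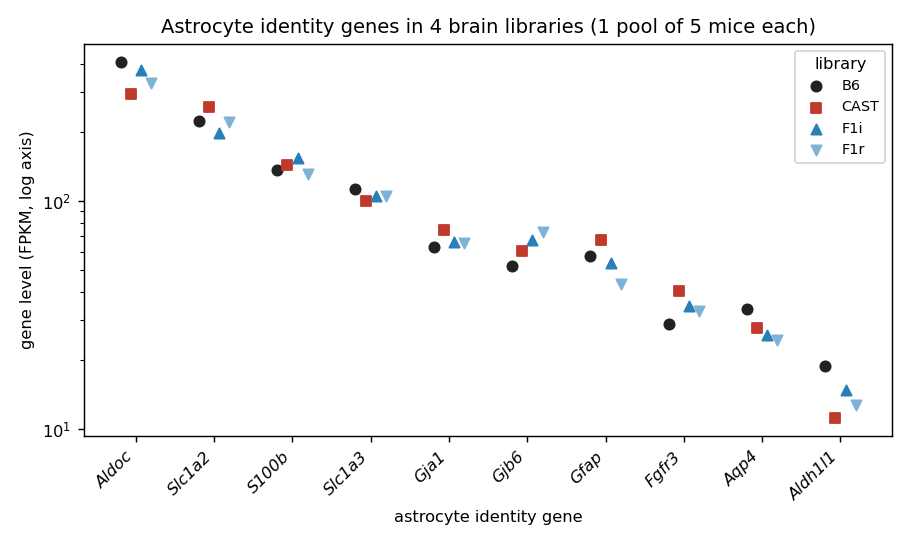
Level of each astrocyte identity gene (FPKM, log axis) in the B6, CAST, F1i and F1r libraries, 1 point per library, genes ordered by mean level. Aldoc lies highest at 295 to 408 FPKM and Aldh1l1 lowest at 11.1 to 18.9, and no gene spans as much as 2-fold.

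The deposited values hold no read counts, but the low values fall in steps. In genes with a single transcript of middle length, FPKM times length gathered at 1 lowest value, taken as the worth of 1 fragment, and again at its double. From this step a depth of about 42500000 fragments was estimated for B6, 30700000 for CAST, 34100000 for F1i and 30700000 for F1r. At that depth the 10 genes rest on many fragments, from about 942 for Aldh1l1 in CAST to about 76513 for Slc1a2 in B6. The matching counting error for Aldh1l1 in CAST is about 3.26%, and at most 2.05% for the other members at their fewest. Counting error is larger for short or low transcripts, such as Gjb6-203, put at about 157 fragments in CAST. That figure is less certain, since the step came from transcripts of middle length. Differences near 0 lie within counting error. The spread between mice or pools, which these libraries cannot show, is not part of it.

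The first comparison set the 2 parental strains against each other. None of the 10 astrocyte identity genes was 2-fold apart on the log2(FPKM + 1) scale, against 5.12% of all 13768 genes (2.85% higher and 2.27% lower in CAST) and 2.9% of the 12293 protein-coding ones. The split of all called genes was 393 higher and 312 lower, but 542 and 161 after rescaling to a common total and 114 and 233 with protein-coding transcripts alone. That rescaling turns the signs of Aqp4 and Slc1a3, to 0.07 and 0.18, and moves the median of all genes to 0.34. The median difference of the 10 was 0.13 (all genes 0.04), with 6 genes higher and 4 lower in value in CAST. In size, 8 of 10 exceeded 0.199, the median absolute difference of all genes, but Slc1a2 (0.200) and Gjb6 (0.206) only just. Gfap, Gja1 and Aqp4 were larger in size than 56.9%, 59.1% and 60.9% of genes. Aldoc, Fgfr3 and Aldh1l1 were larger than 82.3%, 82.6% and 91.2%. In bulk tissue, fewer cells of a type and less RNA per cell cannot be told apart.

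The metabolic enzymes had the largest negative differences. Aldh1l1, a cytosolic folate enzyme that converts formyltetrahydrofolate and is a pan-astrocyte marker (chromosome 6, 90486427 to 90600203, plus strand, GRCm38), was at 18.9 (B6), 11.1 (CAST), 14.8 (F1i) and 12.8 FPKM (F1r). The B6 library was the highest, CAST the lowest, and both hybrids lay between them. Its CAST minus B6 difference of -0.71, 1.64-fold on that scale, was larger in size than that of 91.2% of genes. Both long coding transcripts went the same way: Aldh1l1-201 was at 12.7, 7.57, 9.72 and 8.78 FPKM in the order B6, CAST, F1i and F1r, and Aldh1l1-203 at 3.04, 1.59, 2.13 and 1.84. The exons of Aldh1l1 share 11.05% of their bases with the antisense gene Gm15756, listed at 0 in all 4 libraries, and 2.33% with Gm45901 on the same strand, at no more than 0.47 FPKM. Aldoc, the brain form of the glycolytic enzyme aldolase (chromosome 11, 78322968 to 78327781, plus strand), stood at 408, 295, 374 and 331 FPKM across these libraries, with -0.47 for CAST minus B6. Here too the parents were the extremes, with F1i nearer B6 and F1r nearer CAST.

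Aldoc transcripts begin at or near both starts whose promoters are printed above. Aldoc-202, from the downstream start, held 60.9%, 61.3%, 60.9% and 61.1% of the gene's FPKM in B6, CAST, F1i and F1r, and Aldoc-201, from the upstream start, held 38.6%, 38.0%, 38.3% and 38.3%. The share of each thus moved by less than 1 percentage point while the level moved 1.38-fold between highest and lowest. Since Purkinje cells also make Aldoc, their markers are set beside it. Pcp2 was at 92.6 (B6), 64.6 (CAST), 94.3 (F1i) and 69.8 FPKM (F1r), Calb1 at 50.7, 48.1, 55.1 and 49.4, and Car8 at 43.7, 17.1, 34.2 and 28.9. All 3 were lower in value in CAST than in B6 and in F1r than in F1i, as Aldoc was. Without rescaling, the whole Purkinje and granule cell list had 4 of 5 genes lower in CAST and 5 of 5 lower in F1r. Its sums were 222, 185, 227 and 189 FPKM in that order of libraries, and no gene was at 0. The part of these genes in the Aldoc difference was not tested.

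Fgfr3, a receptor tyrosine kinase for fibroblast growth factors carried by astrocytes and their precursors (chromosome 5, 33721674 to 33737068, plus strand), had the largest positive difference. It was at 28.7 (B6), 40.2 (CAST), 34.6 (F1i) and 33.0 FPKM (F1r), a CAST minus B6 difference of 0.47. B6 was the lowest library, CAST the highest, and both hybrids were between. Its leading transcript was the coding Fgfr3-201, with 44.4% to 49.0% of the gene's FPKM, at 13.9, 19.5, 16.9 and 14.6 FPKM. Fgfr3-215, which begins further downstream, was at 3.01, 5.38, 1.29 and 4.45 FPKM, so its share ran from 3.73% in F1i to 13.5% in F1r. These 17 transcripts overlap heavily, so how fragments were divided among them is uncertain. The exons share 13.9% of their bases with G630022F23Rik on the opposite strand, which was at no more than 0.55 FPKM.

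Neither the other receptors nor the targets of this pathway were 2-fold apart. Of 12 FGF signalling genes, 5 were higher and 7 lower in value in CAST, with a median of -0.003. Fgfr1 was at 14.9 and 14.6 FPKM in B6 and CAST, Fgfr2 at 19.05 and 17.1, and the ligand gene Fgf1 at 24.6 and 21.7. Dusp6, a phosphatase induced by FGF signals, was at 26.5 and 29.3, and the transcription factor gene Etv5 at 20.5 and 13.8.

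The glutamate transporters differed from each other in sign. Slc1a2 encodes GLT-1, the main glutamate transporter of the forebrain, and Slc1a3 encodes GLAST, which is prominent in Bergmann glia. Slc1a2 (chromosome 2, 102658659 to 102790784, plus strand) was at 224 (B6), 257 (CAST), 198 (F1i) and 222 FPKM (F1r). Slc1a3 (chromosome 15, 8634124 to 8710764, minus strand) was at 112, 100.3, 105 and 105, the most even of the 10 genes. CAST was the highest library for Slc1a2 and the lowest for Slc1a3, and the ratio of Slc1a2 to Slc1a3 was 1.99 (B6), 2.56 (CAST), 1.90 (F1i) and 2.12 (F1r). The ratio is taken within a library and does not move with scaling, but it depends on which transcripts are summed. Slc1a2-202, of 11595 bases, held 66.2% of Slc1a2 FPKM in B6 and about 95.4% of its estimated fragments. Slc1a2-202 was at 148, 179, 139 and 157 FPKM in B6, CAST, F1i and F1r, and a coding transcript of 510 bases at 34, 26.2, 18.8 and 24.8.

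The glutamate and GABA handling list, which holds further enzymes and carriers around the synapse, had 8 of 10 genes lower in value in CAST and a median of -0.22, with 0 past the 2-fold rule. Glul, the glutamine synthetase that turns captured glutamate into glutamine, measured 560 FPKM in B6 against 492 in CAST. The GABA transporter gene Slc6a11 was at 52.6 and 42.4, and Glud1, a mitochondrial glutamate dehydrogenase, at 63.8 and 67.4.

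The connexins, the gap junction proteins that join astrocytes into a network, were both higher in value in CAST than in B6. Gja1 encodes connexin 43 (chromosome 10, 56377330 to 56402513, plus strand) and was at 62.8 (B6), 74.8 (CAST), 66.1 (F1i) and 65.6 FPKM (F1r). Nearly all of it, at least 98.97% in each library, was the coding transcript Gja1-201. CAST stood above the other 3 libraries, and the 2 hybrids were within 1 FPKM of each other. Gjb6 encodes connexin 30 (chromosome 14, 57123303 to 57133611, minus strand) and was at 52.0, 60.2, 67.4 and 73.1 FPKM. Both hybrids lay above both parents. Gjb2, a connexin made by meningeal cells and some astrocytes, was at 3.99 (B6), 2.19 (CAST), 2.74 (F1i) and 2.78 FPKM (F1r).

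For Gjb6 the level depended on a very short transcript. Gjb6-203 is an annotated non-coding transcript of 201 bases, just over the 200-base minimum used here. It was at 22.1 (B6), 25.5 (CAST), 34.8 (F1i) and 38.4 FPKM (F1r), or 42.5%, 42.4%, 51.7% and 52.5% of the gene. By FPKM times length it made up only about 6.76% of the gene's fragments in B6. The coding transcript Gjb6-201, of 2105 bases, was at 28.5, 33.98, 31.8 and 33.9 FPKM, so on this transcript the hybrids were no higher than CAST. This was the only one of the 10 genes in which a transcript's share moved by 10 percentage points or more between libraries. The second exon of Gjb6-203 lies inside an exon of the coding transcripts, and its first exon of 73 bases (chr14:57131987-57132059, minus strand, GRCm38, GENCODE M21), which sets it apart, is printed from 5′ to 3′.
Gjb6-203 first exon: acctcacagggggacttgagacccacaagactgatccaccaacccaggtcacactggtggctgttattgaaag
No 31-base word of the annotated Gjb6 transcripts recurs in another gene's transcripts.

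**Figure D2:**
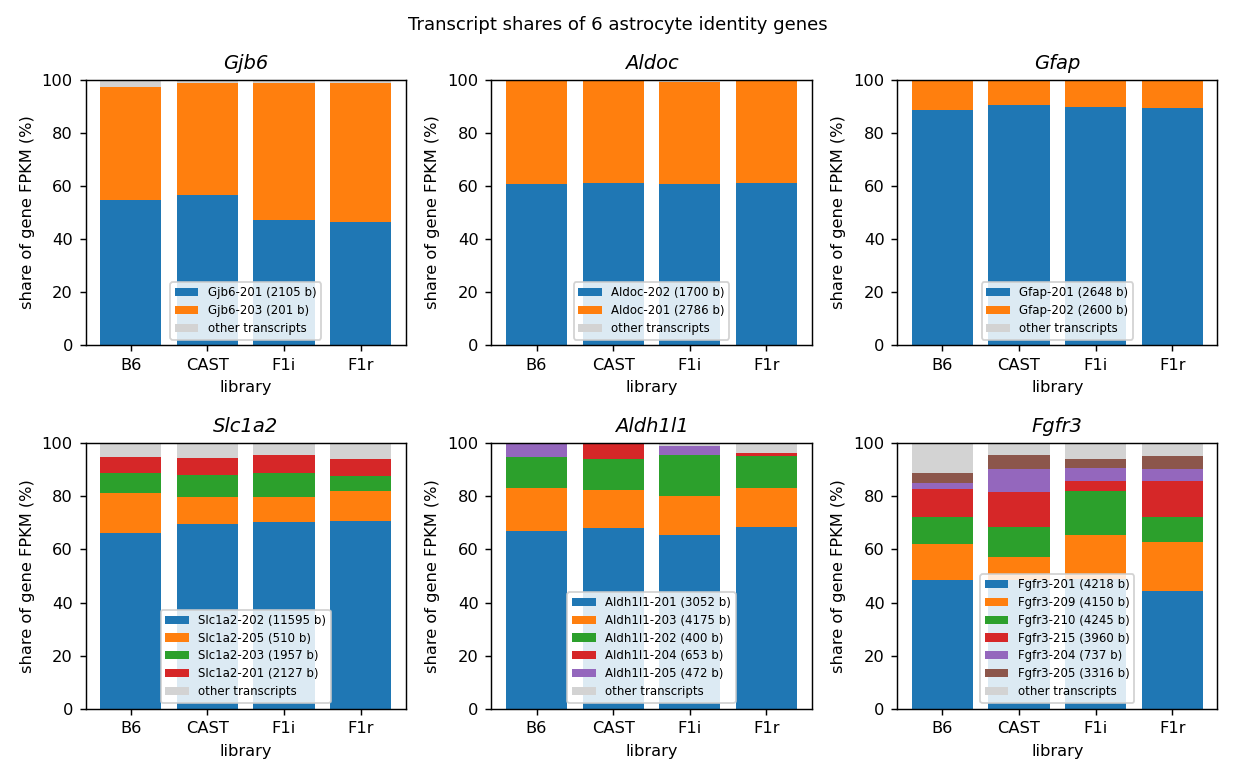
Share of each gene's FPKM (%) held by transcripts with at least 5% in any library, for 6 astrocyte identity genes in the 4 libraries, with transcript length in bases in the key. The 2 Aldoc transcripts keep 60.9% to 61.3% and 38.0% to 38.6%, while the 201-base Gjb6-203 goes from 42.5% in B6 to 52.5% in F1r.

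The filament and water channel genes followed another order. Gfap, the intermediate filament protein whose level is high in fibrous and reactive astrocytes (chromosome 11, 102887336 to 102900912, minus strand), was at 57.2 (B6), 67.5 (CAST), 53.5 (F1i) and 43.1 FPKM (F1r). CAST was the highest and both hybrids were under both parents. Gfap-201 held 88.6% to 90.5% of it, and Gfap-202 the rest, at 6.49, 6.39, 5.54 and 4.63 FPKM. Aqp4, the water channel of perivascular endfeet, was listed as 1 transcript on the minus strand of chromosome 18 (15389394 to 15403684). It was at 33.5 (B6), 27.8 (CAST), 25.9 (F1i) and 24.5 FPKM (F1r). B6 was the highest library, and both hybrids again lay under both parents. The ratio of Gfap to Aqp4 was 1.71 (B6), 2.43 (CAST), 2.06 (F1i) and 1.76 (F1r).

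Genes that work beside Aqp4 at the endfoot showed no common direction. Of 12 water, potassium, endfoot and gap junction genes, 6 were higher and 6 lower in value in CAST than in B6, 0 passed the rule, and the median was 0.01. The potassium channel gene Kcnj10 measured 16.4 FPKM in B6 against 20.3 in CAST, and Mlc1 and Hepacam, partners at astrocyte junctions, at 55.6 and 42.1 and at 16.7 and 9.73. Dtna and Slc4a4, an anchor protein and a bicarbonate carrier, were at 29.8 and 33.0 and at 31.8 and 30.3.

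S100b, a secreted calcium-binding protein (chromosome 10, 76253853 to 76261159, plus strand), was at 137 (B6), 144 (CAST), 154 (F1i) and 132 FPKM (F1r). The parents were 0.07 apart, less than in most genes, and the 2 hybrids stood on opposite sides of them. Some oligodendrocytes also make S100b, and the summed level of 10 oligodendrocyte genes was 2222 (B6), 1339 (CAST), 1836 (F1i) and 1683 FPKM (F1r). Without rescaling, all 10 were lower in value in CAST than in B6, where S100b was slightly higher. On those values 8 of 10 were lower in F1r than in F1i, as S100b was. None was at 0, and their part in the S100b level was not tested.

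**Figure D3:**
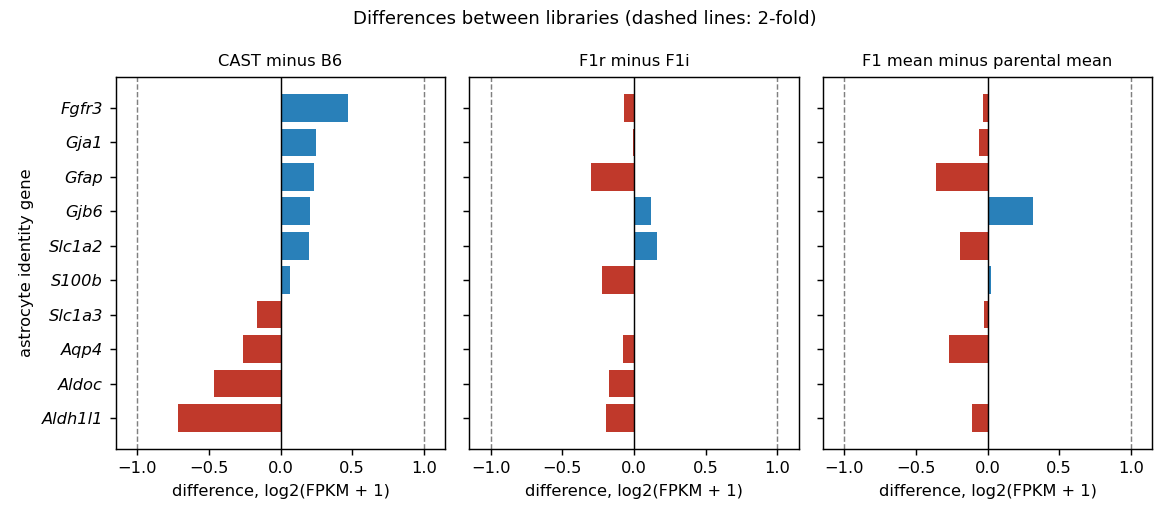
Difference of each astrocyte identity gene on the log2(FPKM + 1) scale in CAST minus B6, F1r minus F1i, and the hybrid mean minus the parental mean; dashed lines mark 2-fold. No bar reaches a dashed line, and the longest is Aldh1l1 at -0.71 in CAST minus B6; rescaling to a common total turns the sign of Aqp4 and Slc1a3 in CAST minus B6, of 6 genes in F1r minus F1i and of S100b and Aldoc in the hybrid panel.

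The 2 reciprocal crosses, which share their autosomal genotype, were compared next. None of the 10 genes was 2-fold apart, against 0.508% of all genes (33 higher and 37 lower in F1r, or 47 and 29 after rescaling to a common total). The median of the 10 was -0.07 (all genes 0.03), with 7 lower and 3 higher in value in F1r. The largest difference was that of Gfap, -0.30, larger in size than in 90.0% of genes, and its 2 coding transcripts shared the sign. S100b followed at -0.22, then Aldh1l1 at -0.20, Aldoc at -0.18 and Slc1a2 at 0.16. Slc1a3 and Gja1 were nearly equal in the 2 hybrids, with differences of 0.002 and -0.01. When every library was rescaled to the same total FPKM, the median of all genes moved to 0.27 and only 1 of the 10 was below 0, while 7 stayed below that median, so the signs here are relative to the bulk of genes.

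Ependymal cells also make Gfap and Aqp4, so their markers are set beside Gfap in this comparison. All 7 ependyma and choroid plexus genes were lower in value in F1r than in F1i. Tmem212 measured 3.30 FPKM in F1i against 1.41 in F1r, Ccdc153 at 2.47 and 1.33, Rarres2 at 7.95 and 4.44, and the cilia regulator gene Foxj1 at 4.09 and 3.24. Their summed level, mostly that of the choroid plexus gene Ttr, was 646 (B6), 402 (CAST), 660 (F1i) and 546 FPKM (F1r), and none was at 0. This direction was not particular to the list. All 10 glutamate and GABA handling genes, 8 microglial, 5 Bergmann and radial glia and 5 Purkinje and granule cell genes were also lower in F1r. Other lists were mixed, with 9 of 12 FGF signalling genes higher in F1r. These counts are without rescaling, and a common total moved the median of all genes from 0.03 to 0.27. Several differences were smaller in size than that, such as Glul (-0.04), Timp4 (-0.01) and Kl (-0.13), but not Tmem212 (-0.83). In CAST minus B6 the ependyma and choroid plexus median was -0.63, whereas Gfap was at 0.24. With a common total, Gfap in F1r minus F1i was at -0.04. The part of the ependymal genes in the Gfap difference was not tested.

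The hybrids were set against the parents to ask whether hybrid levels were intermediate. In 5 of 10 genes (Aldh1l1, Slc1a3, Gja1, Aldoc and Fgfr3) both hybrid libraries lay within the parental range, which held for 41.3% of all genes. Both lay outside on the same side in 4 of 10, against 18.6% of all genes: Gfap, Aqp4 and Slc1a2 below (9.86% of all genes) and Gjb6 above (8.77%). S100b had 1 hybrid on each side. The count of 4 came down to 2, Gfap and Aqp4, when all libraries were brought to the same total, when only the leading transcript of each gene was used, or when transcripts were weighted by fragments. Slc1a2 in F1r was 222 FPKM against 224 in B6, so close to the parental range. For Gfap the hybrid libraries were at 85.8% and 69.2% of the parental mean of 62.3 FPKM, and for Aqp4 at 84.6% and 80.04% of 30.6.

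On the 2-fold rule, the hybrid mean differed from the parental mean in 0 of the 10 genes, against 0.167% of all. The median difference was -0.05 (all genes -0.006), from -0.36 in Gfap and -0.27 in Aqp4 to 0.32 in Gjb6. The differences of Gfap, Aqp4 and Gjb6 were larger in size than in 97.9%, 95.3% and 96.9% of genes. With protein-coding transcripts alone the Gjb6 value was 0.06, and weighted by fragments 0.11. The parental libraries that enter this difference are those of CAST minus B6, so the 2 comparisons are not independent.

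**Figure D4:**
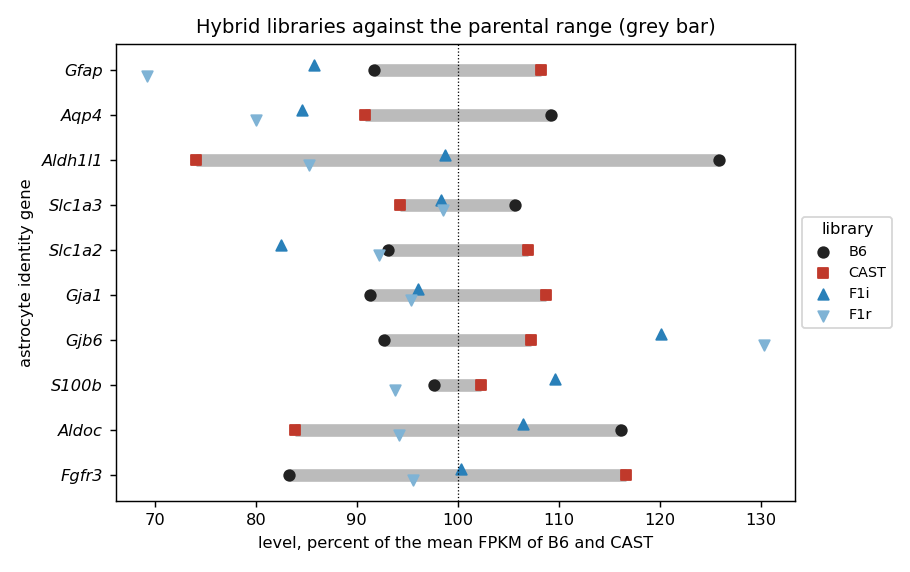
Level of each astrocyte identity gene in the 4 libraries as a percent of the mean FPKM of B6 and CAST; the grey bar spans the 2 parents. Both hybrid points lie left of the bar for Gfap, Aqp4 and Slc1a2 and right of it for Gjb6, and inside it for 5 genes; Slc1a2 and Gjb6 leave this pattern when all libraries are rescaled to a common total.

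For genes whose parents differed by at least 0.25, the place of each hybrid between the parents was computed, 0 standing for the B6 level and 1 for the CAST level. Aldh1l1 was at 0.52 in F1i and 0.78 in F1r, Aldoc at 0.30 and 0.68, and Fgfr3 at 0.51 and 0.37. Aqp4, with both hybrids past CAST, was at 1.33 and 1.58. F1r was nearer CAST than F1i was in Aldh1l1 and Aldoc, nearer B6 in Fgfr3, and further past CAST in Aqp4.

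The wider astrocyte programme was described with 6 lists that cover glutamate and GABA handling, endfoot and junction genes, FGF signalling, metabolism, transcription factors and other astrocyte-enriched genes. Of 87 listed genes 84 reached a mean of 1 FPKM. On the log2(FPKM + 1) scale 0 of 84 were 2-fold apart in any of the 3 comparisons. Over all genes 5.12% were in CAST minus B6, or 2.9% of the protein-coding ones. That share was 0.508% in F1r minus F1i and 0.167% for hybrids against parents, so a count of 0 is near it there. In CAST minus B6 the median of the 84 was -0.08 and 55 were lower in value. In F1r minus F1i it was -0.01, and in the hybrid mean minus the parental mean -0.03. Both hybrids lay outside the parental range on the same side in 19 of the 84, 15 of them below and 4 above. Over all genes the shares were 18.6%, with 9.86% below and 8.77% above. The count of 19 is near its share, the 15 exceed theirs and the 4 fall short of theirs, all without rescaling. The transcription factor list had a median of -0.04 (7 of 12 lower) and the other astrocyte-enriched genes -0.09 (18 of 26 lower) in CAST minus B6. Among the factors known for a part in astrocyte development, Sox9 measured 2.38 FPKM in B6 against 2.60 in CAST, Nfia at 8.58 and 8.07, and Id4 at 35.7 and 32. Larger differences were seen in Id3 (21 and 13.3), Hes5 (10.5 and 7.14), Sox2 (11.6 and 16.4) and Lhx2 (8.13 and 11.5), in both directions. Among the abundant astrocyte products, the protease inhibitor gene Cst3 was at 994 and 892 FPKM, the metallothioneins Mt1 and Mt3 at 587 and 471 and at 516 and 564, and Sparcl1, a secreted synapse-modulating protein, at 409 and 336. The gene nearest the rule was Paqr6, at 7.56 and 3.41 FPKM, a difference of -0.96. In plain FPKM Paqr6 was more than 2-fold apart, so the count of 0 holds only for the log2(FPKM + 1) scale.

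In the astrocyte metabolism list, 9 of 12 tested genes were lower in value in CAST, with a median of -0.07. Ldhb, a lactate dehydrogenase subunit gene, measured 390 FPKM in B6 against 284 in CAST, and the fatty acid activating enzyme Acsbg1 at 52.2 and 39.8. The glycogen phosphorylase gene Pygb was at 48.1 and 45, and the aldehyde dehydrogenase genes Aldh2 and Aldh1a1 at 34.7 and 26.1 and at 34.3 and 24.0.

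Genes of reactive astrocytes were set beside Gfap because it is commonly read as a sign of reactivity. Only 15 of 29 reached a mean of 1 FPKM, and those under it included the injury marker Lcn2, at 0.22, 0.29, 0.27 and 0.73 FPKM in B6, CAST, F1i and F1r, and Cxcl10. In CAST minus B6 none of the 15 was 2-fold apart on the log2(FPKM + 1) scale, beside 5.12% of all genes. In plain FPKM Fbln5 was, at 2.83 in B6 and 1.21 in CAST. Of the 15, 11 were lower in value in CAST, and the median was -0.39, opposite in sign to Gfap. In F1r minus F1i and in the hybrid mean minus the parental mean the medians were -0.06 and -0.11, with 10 and 9 of 15 below 0, the same sign as Gfap. Values from bulk tissue cannot be assigned to astrocytes alone. For CAST minus B6 the microglial median was -0.38, the mural and meningeal -0.33 and the endothelial 0.06. Vim, the filament partner of Gfap, was at 20.3 (B6), 16.6 (CAST), 17.6 (F1i) and 16 FPKM (F1r). Serpina3n, a serine protease inhibitor, was highest in CAST, at 5.20, 10.1, 7.33 and 6.41. S100a10 was at 33.4, 17.2, 22.5 and 24.4 and Hspb1 at 8.79, 4.79, 6.36 and 7.98.

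**Figure D5:**
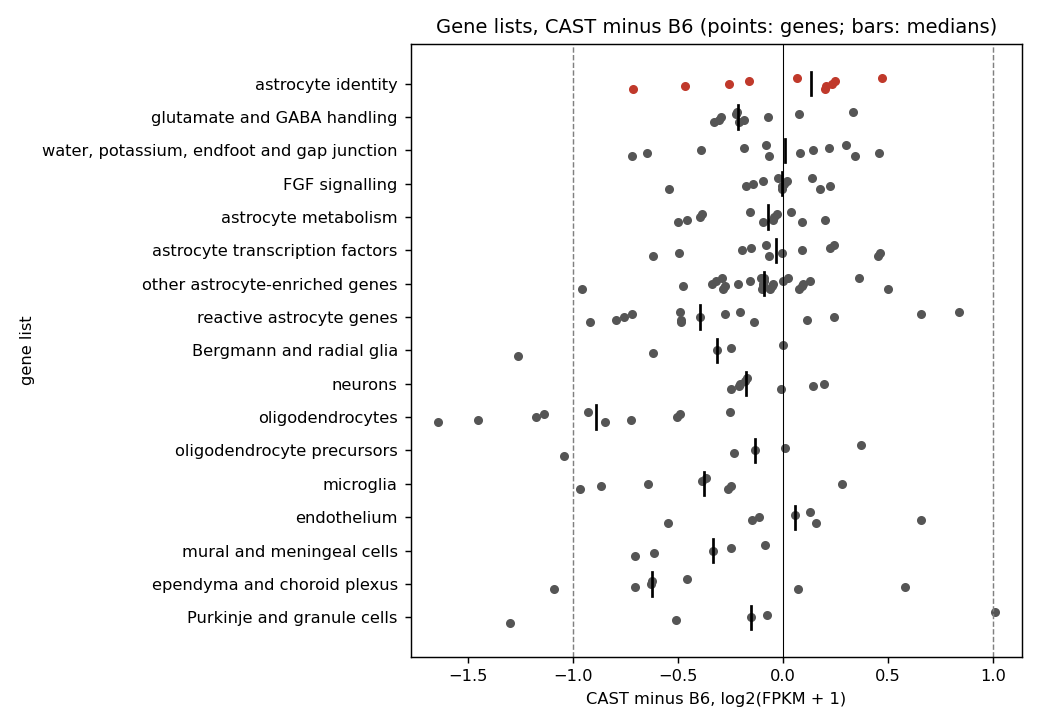
CAST minus B6 differences on the log2(FPKM + 1) scale for the genes of each list with a mean of at least 1 FPKM; points are genes, short bars list medians and dashed lines 2-fold. The astrocyte identity points (red) lie between -0.71 and 0.47, whereas 4 of 10 oligodendrocyte points lie below -1, all without rescaling. After rescaling to a common total the astrocyte identity median is 0.475 and that of all genes 0.34. Of those 4 points, only Mobp and Opalin lie below -1 by more than 0.34, the largest move of an astrocyte identity gene under that rescaling.

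Some lists of other cell types had genes past the rule between the parents. Of 10 oligodendrocyte genes 4 passed the 2-fold rule, all lower in CAST, with a median of -0.89. Over all genes 5.12% passed, and 2.27% were lower in CAST, so counts of 0 in lists this short are near that share. The Bergmann and radial glia list had 5 of 5 genes lower in value in CAST, although Itih3 was at 15.7 FPKM in both, with Hopx past the rule at 42.6 and 17.2 FPKM, Gdf10 at 5.88 and 3.47 and Fabp7, a radial glial fatty acid binding protein, at 24.8 and 20.7. Slc1a3, the member that these cells also make, was at 112 and 100.3. Neuronal genes had a median of -0.18 and endothelial genes 0.06, with 0 of 8 and 0 of 7 past the rule, microglial genes -0.38 with 0 of 8, and mural and meningeal genes -0.33 with 0 of 5. Among oligodendrocyte precursor genes only Sox10 passed, at 8.70 and 3.71 FPKM. Kl passed among 7 ependyma and choroid plexus genes (4.65 and 1.65), and the cerebellar genes Car8 (43.7 and 17.1) and Gabra6 (20.01 and 41.3) passed in opposite directions. These counts are without rescaling. A common total raised the astrocyte identity genes in CAST minus B6 by up to 0.34. Of the list genes past the rule and lower in CAST, only Mobp (-1.45) and Opalin (-1.64) passed by more than that. No marker of these lists was at 0 in any library, and their part in the values of the astrocyte identity genes was not tested.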

How the data were processed

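Total RNA from pooled left brain hemispheres was extracted with a lipid tissue kit and made into strand-specific libraries, per the labels' protocols. The authors deposited FPKM per transcript, 1 table per library. Per the submitters' processing notes, the tools were Cufflinks 2.2.1, Cuffdiff, HISAT2, Trimmomatic 0.36 and bcl2fastq 2.20 and the build mm9. Of 128603 transcripts, 99.5% were in GENCODE M21 (GRCm38), 97.2% of these with the same ends, so coordinates are given in GRCm38. Whether counting used strand or a CAST genome is not given in the sources used here, so any CAST reads lost in alignment to a C57BL/6 genome cannot be measured.

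Transcripts of at least 200 bases were summed per gene identifier, and 13768 of 45215 genes with a mean FPKM of at least 1 were compared on log2(FPKM + 1), the hybrid and parental means being taken on FPKM. This scale understates changes of low genes. A gene was counted at 2-fold or more. Named genes were the 10 members, their transcripts with at least 5% of a gene, list members 2-fold apart and up to 4 abundant members a list; other list genes were picked with their values in view, and some are not reported here. The members and lists were chosen with earlier results of these data known. Shared 31-base words were 14.9% in Fgfr3, 11.4% in Aldh1l1 and at most 1.53% in the others. In simulated data for CAST minus B6 over 13768 genes, 86.0% of genes planted at a log2 change of 1.5 were called and 0 unchanged ones. The spread between pools was not measured. The 86.0% is thus no estimate of sensitivity, and the 0 no estimate of false calls, in these data. Python 3.11.15, numpy 2.4.6, pandas 2.3.3 and matplotlib 3.10.9 were used.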

Additional observations from a re-analysis of the deposited data

How the results depend on the processing

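The results were recomputed under 9 alternatives: median-ratio scaling, a common total FPKM, a filter at a mean of 5 FPKM or no filter, a pseudocount of 0.1, the leading transcript only, transcripts of all lengths, protein-coding transcripts only, and a fragment-weighted level added after seeing the data. No member was 2-fold apart in any comparison under any of them, the largest difference being 0.80 (Fgfr3, common total, CAST minus B6). With a common total, the CAST minus B6 median of the 10 genes went from 0.13 to 0.475 while that of all genes went from 0.04 to 0.34. Differences of single genes changed sign in 16 of 270 cases, none of them 2-fold apart. Members with both hybrids outside the parental range numbered 2 with a common total, 2 with the leading transcript and 2 with the fragment-weighted level, against 4 otherwise, or 3 with protein-coding transcripts only. Positions between the parents on the log2 scale had medians of 0.51 in F1i and 0.69 in F1r. No paired analysis was possible because each group is 1 library, and for the same reason none was left out in turn. Called genes over all genes, 705 for CAST minus B6, were 1069 with the pseudocount of 0.1, 373 with the filter at 5 and 347 with protein-coding transcripts. The 70 for F1r minus F1i became 185, 34 and 32, and the 23 for hybrids minus parents 49, 9 and 9; transcripts of all lengths gave 224 and 200 for these, and no filter 36 for the latter. Absolute depth is an estimate, and the spread between mice is not measured here.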
